A study of Rattus norvegicus with 6 samples.

Results

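The 10 genes described here encode receptors of the signalling lipids sphingosine-1-phosphate (S1P) and lysophosphatidic acid (LPA), the LPA-producing enzyme autotaxin and both sphingosine kinases. They were found by gene symbol among the 32662 rows of the deposited expression table: S1pr1, S1pr2, S1pr3, S1pr5, Lpar1, Lpar4, Lpar6, Enpp2, Sphk1 and Sphk2. The genes were chosen by their known role, but with the values of the comparison below in view: their FPKM in the 6 libraries and the fibril minus control differences had been seen, with S1pr1 among the lower genes. Their levels and differences are therefore a description: no p-value is printed for any of them, and nothing rests on how many passed a threshold. The study asked which transcripts differ after cultured oligodendrocyte precursor cells meet alpha-synuclein fibrils. The cells were primary cultures from the cerebral cortex of Sprague-Dawley rats, taken from mixed glia of pups aged 1 to 2 days in medium with 20% serum. All cultures, controls included, were grown for 4 to 5 days with PDGF and FGF (10 ng/ml each) and 2% B27. The 3 fibril libraries came from cells that were exposed to preformed fibrils of human alpha-synuclein for 72 hours, and the 3 control libraries from cells that were not. The labels do not say whether libraries of a group came from separate animals or cultures, so the spread between them may be technical. A mixed glial culture can also hold astrocytes and microglia.

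Sphingosine kinases, encoded by Sphk1 and Sphk2, phosphorylate sphingosine to S1P. Autotaxin, a secreted enzyme encoded by Enpp2, cleaves lysophosphatidylcholine to LPA. Both lipids act outside the cell on families of G protein coupled receptors, which signal through Gi, Gq and G12/13 proteins. In the brain, S1pr1 is known from astrocytes, blood vessels and neural precursors, while S1pr5 and Lpar1 are known from the oligodendrocyte lineage and myelinating cells. Enpp2 is also abundant in oligodendrocytes, where the protein has been studied as a regulator of process outgrowth and differentiation.

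Levels are in FPKM, the fragments per kilobase of a gene scaled to the library's mapped fragments, so they can be compared between genes. The fragment number is not given with them, but low values showed what a single fragment was worth. Relative to control replicate 2, this worth was 4.02 in control replicate 1 and 6.94 in fibril replicate 1, and ranged from 0.817 to 1.96 among the other libraries. Replicate 1 of both groups is therefore the least precise. Mitochondrially encoded genes held 80.3% and 75.6% of its FPKM total in control and fibril cells, and 12% to 40.1% elsewhere. Genes that every cell uses, such as Hprt1 and Rps6, were listed at 0 in all 6 libraries, so an exact 0 can be a failed estimate.

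S1pr1, S1pr2 and S1pr5 belong to 1 receptor family. S1pr1 was lower, S1pr5 higher and S1pr2 overlapping between the groups, so the stretch before the start of each is shown. The sequences are from RefSeq (build GRCr8, all on the minus strand), cover up to 250 bases before the start, and leave out bases inside the annotated gene. Of the 10 genes, 8 were in the table and 7 had bases outside the annotated gene. Capitals mark matches, on either strand, to 5 short motifs: the E-box CANNTG, the GC box GGGCGG, the CCAAT box CCAAT, the TATA box TATAAA and a SOX site ACAAAG.
S1pr1, chr2:206314071-206314320: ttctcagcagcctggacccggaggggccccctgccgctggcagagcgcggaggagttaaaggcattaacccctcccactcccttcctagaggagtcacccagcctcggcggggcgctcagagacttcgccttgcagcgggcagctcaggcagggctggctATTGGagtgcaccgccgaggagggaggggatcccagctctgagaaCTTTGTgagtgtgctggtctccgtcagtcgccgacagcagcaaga
S1pr2, chr8:27790345-27790594: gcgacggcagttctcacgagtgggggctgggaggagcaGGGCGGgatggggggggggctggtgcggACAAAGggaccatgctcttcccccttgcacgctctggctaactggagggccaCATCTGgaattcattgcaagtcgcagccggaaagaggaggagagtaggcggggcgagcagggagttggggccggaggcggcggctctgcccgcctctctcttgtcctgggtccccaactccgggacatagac
S1pr5, chr8:28068014-28068119: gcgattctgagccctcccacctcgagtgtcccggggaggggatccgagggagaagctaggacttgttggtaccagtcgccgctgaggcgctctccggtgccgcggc

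The S1pr1 stretch held a CCAAT box 90 bases and a SOX site 45 bases before the start, both on the opposite strand. The S1pr2 stretch held a GC box at 212, a SOX site at 184 and an E-box at 132 bases before the start. None of the matches overlapped another. The 106 bases of S1pr5 held none of these motifs. They are the part farthest from the start: the 144 bases nearest to it lie inside the annotated gene and were not searched. Among 33469 rat windows of 250 bases, 65.5% held the E-box, 30.5% the GC box, 34% the CCAAT box, 12.9% the TATA box and 16.3% the SOX site. In windows of 106 bases the shares were 37.3%, 11.2%, 15.3%, 5.72% and 7.53%. The G and C content was 64.8% for S1pr1, 66.4% for S1pr2 and 67.9% for S1pr5, where the median window of 250 bases had 51.2% and that of 106 bases 50%. A match describes letters, and no factor binding was measured.

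Among the S1P receptors, S1pr1 was lower and S1pr5 higher in every fibril library than in every control library. S1pr1 (chromosome 2, 218654553 to 218658761 in the table's coordinates), a Gi-coupled receptor, had 3.81, 3.82 and 3.98 FPKM in control replicates 1, 2 and 3. With fibrils it had 1.16, 0.578 and 0.652 FPKM. The controls were close together, and the highest fibril value was under the lowest control. The means were 3.87 ± 0.0923 and 0.796 ± 0.316 FPKM (SD, n = 3 each), a 4.86-fold lower level with fibrils, and the levels within replicates 1, 2 and 3 were 3.29, 6.61 and 6.1 times lower. On the log2(FPKM + 1) scale, where changes of low genes come out too small, the difference was -1.45 (SE 0.36). Bulk RNA cannot tell fewer cells of a type from less RNA per cell, here or below.

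S1pr5 (chromosome 8, 22268656 to 22270647), the family member best known from oligodendrocytes, had 0.293, 0.364 and 0.654 FPKM in control cells and 1.52, 1.9 and 3.43 FPKM after fibrils. All fibril values were above all control values. The means were 0.437 ± 0.191 and 2.28 ± 1.01 FPKM (SD, n = 3 each), and the ratio was nearly the same in each replicate number: 5.17, 5.21 and 5.24. The log2 difference was 1.16 (SE 0.38). S1pr5 reached the filter of 1 FPKM in 3 libraries through the fibril group alone, so among filtered genes it had to be higher there.

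The depth behind these low values could be estimated, because the values of a gene divided by each library's worth of 1 fragment should be whole multiples of 1 number. The smallest whole numbers within 0.05 of the values, in every library under 25 fragments, were taken, and a multiple of them would serve as well. For S1pr5 they were 1, 5 and 11 fragments in the controls and 3, 20 and 24 with fibrils. For S1pr1 they were 17, 69 and 88 against 3, 8 and 6. The replicate 1 values of S1pr5 thus rest on very few fragments, and its ratio there is imprecise whatever its closeness to the others.

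S1pr2 (chromosome 8, 21984913 to 21995806), a receptor coupled to G12/13, lies 272849 bases from S1pr5 on the same chromosome. It had 1.26, 10.1 and 11.3 FPKM in control cells and 2.89, 6.61 and 9.44 FPKM after fibrils. The groups overlapped, and the spread followed the replicate number: replicate 1 was lowest in both groups. The log2 difference was 0.00 (SE 0.70), positive in replicate 1 (0.78) and negative in replicates 2 and 3 (-0.55 and -0.23). S1pr3, another receptor known from astrocytes, was 0 in both replicate 1 libraries and had 0.31 and 0.195 FPKM in control replicates 2 and 3 and 0.253 and 0.469 FPKM in fibril replicates 2 and 3. S1pr4, a receptor of immune cells and no member of the set, was listed at 0 in all 6 libraries.

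**Figure D1:**
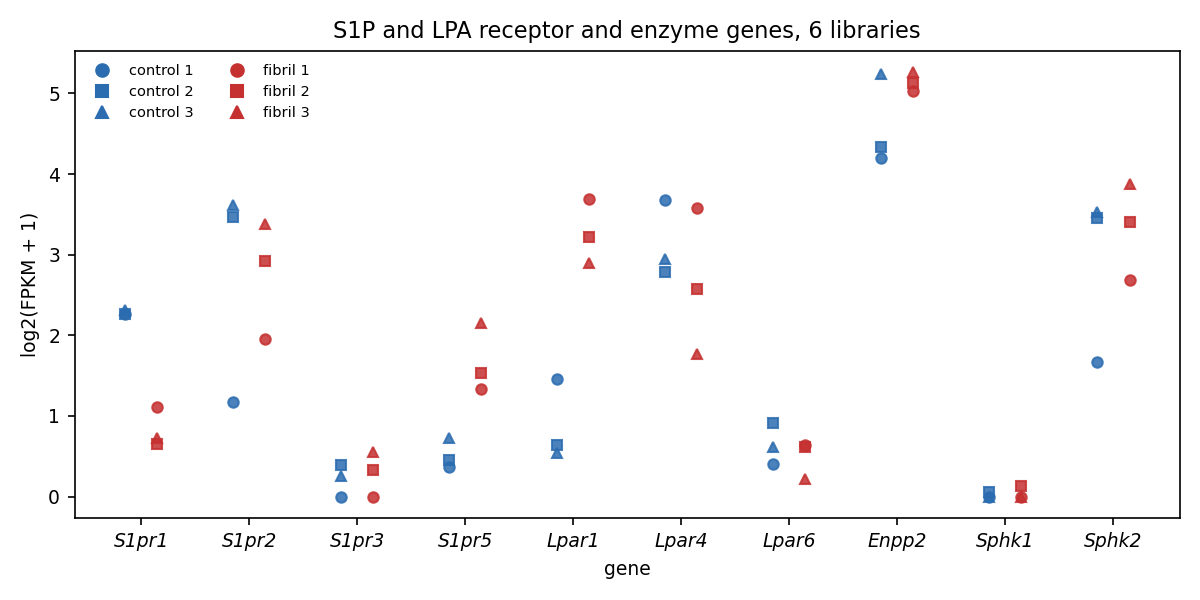
log2(FPKM + 1) of the 10 genes (horizontal axis) in each of the 6 libraries, control in blue and fibril in red; circles, squares and triangles are replicates 1, 2 and 3. The groups separate for S1pr1, S1pr5 and Lpar1 and overlap for the other 7 genes.

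Within a library, the ratio of one receptor to another does not depend on how the library was scaled. The S1pr5 to S1pr1 ratio was 0.0769, 0.0954 and 0.165 in controls and 1.31, 3.29 and 5.26 with fibrils. S1pr1 was thus above S1pr5 in all 3 controls and below it in all 3 fibril libraries. S1pr1 made up 71.1%, 26.1% and 24.7% of the summed FPKM of the 5 S1P receptor genes in controls, and 20.8%, 6.18% and 4.66% with fibrils. Genes listed at 0 count as 0 in these sums. S1pr5 made up 5.46%, 2.49% and 4.07% against 27.2%, 20.3% and 24.5%. S1pr2 held the largest share in 5 of the 6 libraries, the exception being control replicate 1, where it had 23.5%. The summed level itself overlapped, at 5.37, 14.6 and 16.1 FPKM in control cells and 5.57, 9.34 and 14 FPKM after fibrils.

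**Figure D2:**
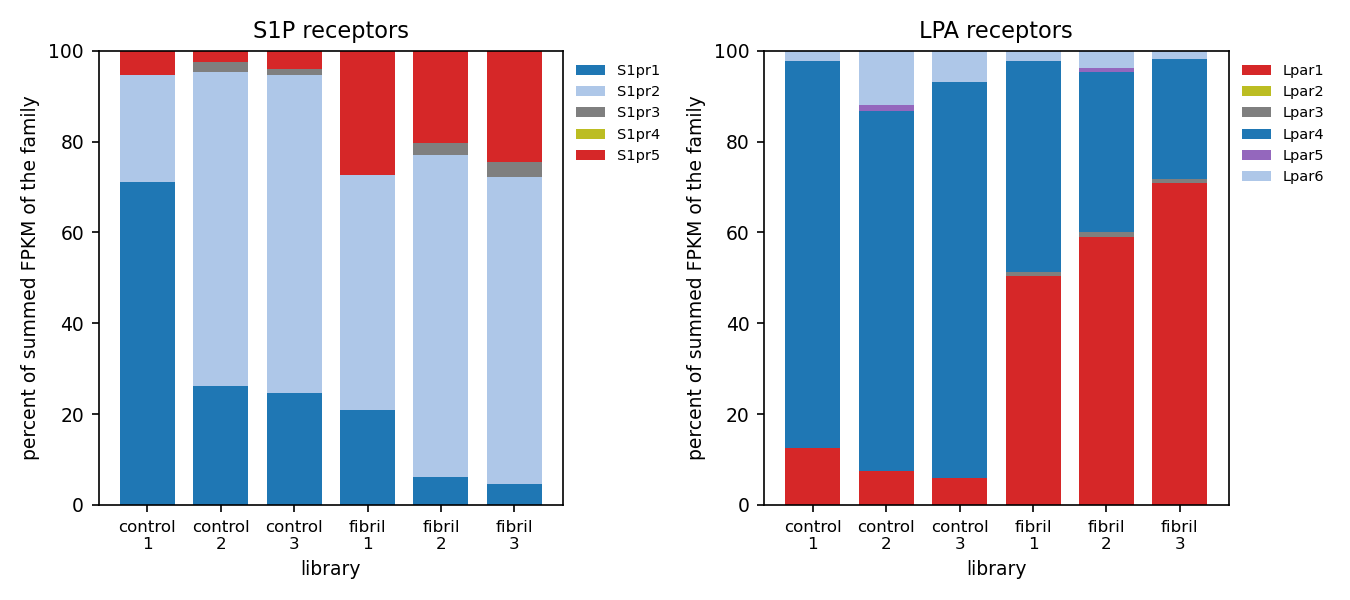
Share of each gene in the summed FPKM of the S1P receptors (left, 5 genes) and the LPA receptors (right, 6 genes), 1 stacked bar per library. S1pr5 is above 20% in the fibril bars only, and Lpar1 is 50.3% to 70.9% of the LPA receptors there against 5.88% to 12.5% in the controls.

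Among the LPA receptors, Lpar1 was higher in every fibril library than in every control library. Lpar1 (chromosome 5, 75557041 to 75676584), the LPA receptor of maturing oligodendrocytes, had 1.74, 0.554 and 0.452 FPKM in control cells and 11.9, 8.28 and 6.44 FPKM after fibrils. The lowest fibril value was above the highest control value, and within each group replicate 1 was the highest. The means were 0.914 ± 0.714 and 8.89 ± 2.8 FPKM (SD, n = 3 each), a 9.73-fold ratio, with 6.88, 14.9 and 14.2 within replicates 1, 2 and 3. The log2 difference was 2.39 (SE 0.43). The smallest whole numbers of fragments were 7, 9 and 9 in controls and 28, 103 and 53 with fibrils. Only 3 libraries of Lpar1 lay under 25 fragments, so this estimate is less secure than that for S1pr5.

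Lpar4, a receptor coupled to several G proteins that include G12/13, had 11.8, 5.9 and 6.71 FPKM in control cells and 11, 4.95 and 2.42 FPKM after fibrils. The groups overlapped, with both replicate 1 libraries high and fibril replicate 3 low. Its log2 difference of -0.49 (SE 0.53) was -0.06 without fibril replicate 3. Lpar6, a G12/13-coupled receptor whose gene lies within an intron of Rb1, had 0.324, 0.89 and 0.528 FPKM in control cells and 0.559, 0.527 and 0.159 FPKM after fibrils. The table gives Lpar6 and Rb1 the same locus, so fragments of the 2 genes may not have been told apart. The smallest whole numbers of fragments for Lpar6 were 1, 11 and 8 against 1, 5 and 1.

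Of the LPA receptors outside the set, Lpar2 was listed at 0 in all 6 libraries. Lpar3 was 0 in the 3 control columns, and its fibril values were 0.251, 0.14 and 0.0702 FPKM. Lpar5 was above 0 only in replicate 2, where the control library had 0.0968 FPKM and the fibril library 0.126 FPKM. Lpar4 held 85.2%, 79.3% and 87.3% of the summed LPA receptor FPKM in controls and 46.3%, 35.3% and 26.6% with fibrils. Lpar1 held 12.5%, 7.45% and 5.88% against 50.3%, 59% and 70.9%. The Lpar1 to Lpar4 ratio was 0.146, 0.094 and 0.0673 in controls and 1.09, 1.67 and 2.66 with fibrils, so their order was the opposite in the groups. The summed level was 13.9, 7.44 and 7.69 FPKM in control cells and 23.8, 14 and 9.09 FPKM after fibrils, and overlapped.

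The enzymes differed less than Lpar1. Enpp2 (chromosome 7, 94480395 to 94563001), which encodes autotaxin, was the most abundant of the 10 genes in every library. It had 17.3, 19.2 and 37 FPKM in control cells and 31.7, 34.1 and 37.5 FPKM after fibrils. The fibril values were close together, and control replicate 3 lay among them. The means were 24.5 ± 10.9 and 34.5 ± 2.94 FPKM (SD, n = 3 each), and the log2 difference was 0.55 (SE 0.41), with 0.84, 0.80 and 0.02 within replicates 1, 2 and 3. It was 0.88 without control replicate 3.

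Sphk2, the kinase that works mainly in the nucleus and at organelles, had 2.19, 9.97 and 10.6 FPKM in control cells and 5.44, 9.63 and 13.7 FPKM after fibrils. The groups overlapped and replicate 1 was lowest in both, as for S1pr2. The log2 difference was 0.43 (SE 0.59), and -0.17 without control replicate 1. Sphk1, the cytosolic kinase that growth factors activate, was above 0 only in replicate 2, with 0.0448 FPKM in the control and 0.0997 FPKM in the fibril library. Sphk2 was above Sphk1 in both libraries where Sphk1 had a value; in the other 4 the listed 0 of Sphk1 can be a failed estimate.

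In the controls the genes ranked Enpp2, Lpar4, Sphk2, S1pr2, S1pr1, Lpar1, Lpar6, S1pr5, S1pr3 and Sphk1 by mean FPKM. Neighbours in this order had overlapping values, except that Enpp2 lay wholly above Lpar4 and S1pr1 wholly above Lpar1. With fibrils the order was Enpp2, Sphk2, Lpar1, S1pr2, Lpar4, S1pr5, S1pr1, Lpar6, S1pr3 and Sphk1. There Enpp2 lay wholly above Sphk2, S1pr5 above S1pr1 and S1pr1 above Lpar6, and the other neighbours overlapped. Lpar1 moved from place 6 to place 3, and S1pr5 and S1pr1 exchanged their order.

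**Figure D3:**
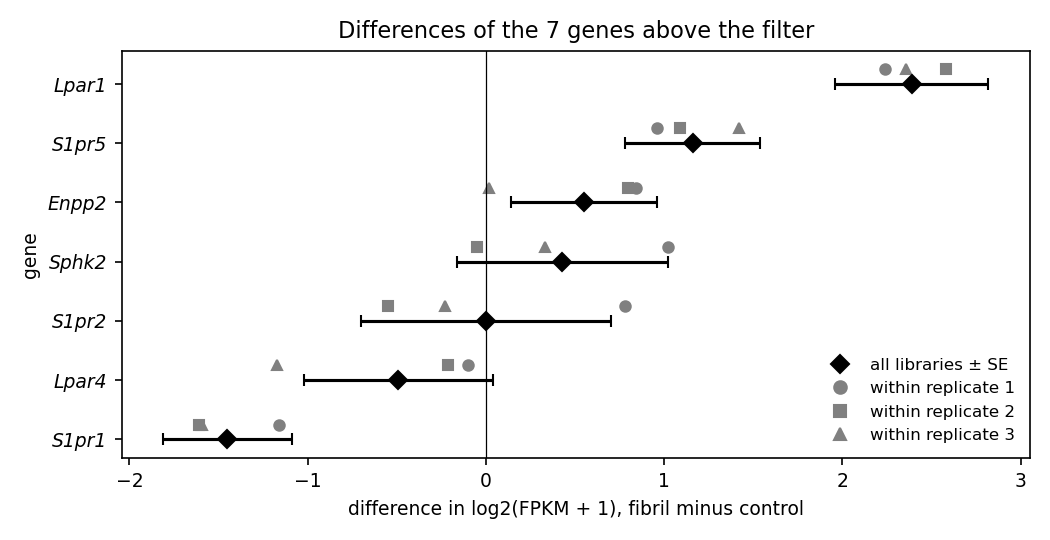
Difference in log2(FPKM + 1), fibril minus control, of the 7 genes above the filter: diamonds with SE for all libraries, and grey markers for the difference within each replicate number. Lpar1 (2.39) and S1pr5 (1.16) are positive and S1pr1 (-1.45) is negative in every replicate number, while S1pr2 and Sphk2 have both signs.

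Of the 10 genes, 7 passed the filter (at least 1 FPKM in 3 libraries); S1pr3, Lpar6 and Sphk1 did not. S1pr1, S1pr5 and Lpar1 each passed it through the group where they were high: in the other group 1 library of S1pr1, 1 of Lpar1 and 0 of S1pr5 reached 1 FPKM. By limma without a block, 0 of the 7 passed an adjusted p of 0.05, as did 0% of all 10766 genes tested; 3 of the 7 and 4.02% of all genes had an unadjusted p under 0.05. With the replicate number as a block, 0 of the 7 and 0.111% of all genes passed. All 3 fibril libraries were above all 3 controls for 2 of the 7 (S1pr5 and Lpar1) and for 4.24% of all genes, and below them for 1 (S1pr1) and for 5.3%. Nothing is read from these shares, since the genes were chosen with this comparison known. The median log2 difference of the 7 was 0.43, beside -0.04 over all genes tested. Scaled without mitochondrially encoded genes, the median of all genes moved to -0.30, and relative to it S1pr1 was at -1.35, S1pr5 at 1.28 and Lpar1 at 2.52.

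The surrounding pathway showed 0 genes past the threshold without a block and 1 with the replicate block. Of 97 other genes in 5 lists (other receptors, S1P and ceramide metabolism, LPA and lysophosphatidylcholine metabolism, G proteins and downstream signalling, and SRF and YAP targets), 70 were tested. By limma without a block, 0 of the 70 passed over all genes, and 1 had an unadjusted p under 0.05. The shares over all genes tested were 0% and 4.02%. With the replicate block, 1 of the 70 rose (Enpp6) and 0 fell, where 0.111% of all genes passed. Enpp6, which encodes a choline-specific phosphodiesterase of newly formed oligodendrocytes that acts on lysophosphatidylcholine, had 13.2, 1.14 and 2.78 FPKM in control cells and 72.1, 43.9 and 69.5 FPKM after fibrils. Its log2 difference was 3.66 (SE 0.66), with an adjusted limma p of 0.304 without the block and 0.0435 with it. With the block it did not pass after scaling without mitochondrially encoded genes or after quantile normalization.

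**Figure D4:**
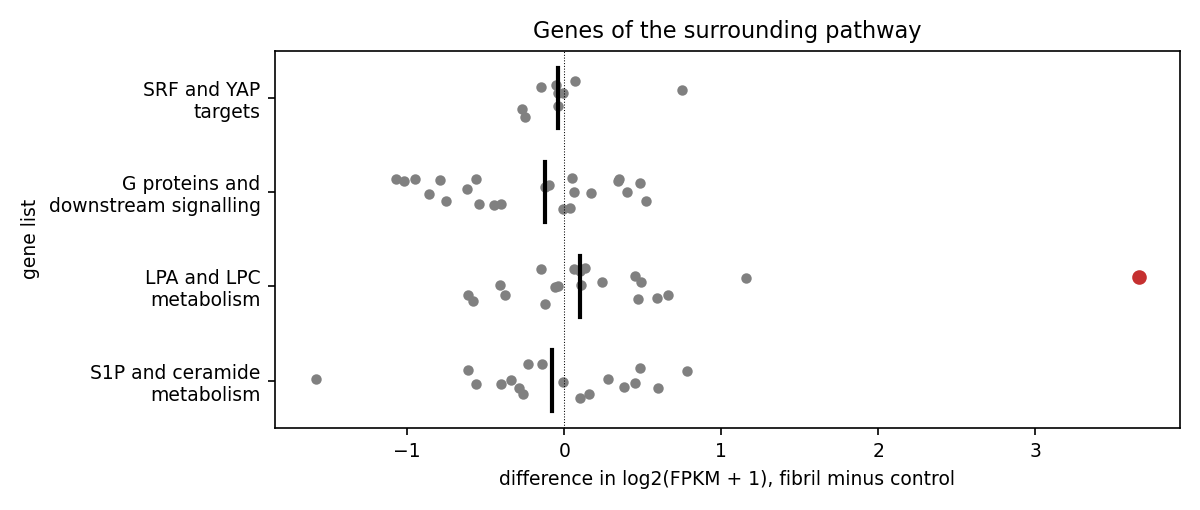
Difference in log2(FPKM + 1), fibril minus control, of the tested genes in 4 lists of the surrounding pathway (1 dot per gene, black bars at the list medians from -0.12 to 0.10; LPC is lysophosphatidylcholine). The red dot is Enpp6 (3.66), which passed with the replicate block.

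In S1P and ceramide metabolism, 8 of 18 tested genes had positive differences and the median was -0.08. Over all genes tested 47% were positive, which is the share to set beside this count and the counts of positive genes below. The S1P exporter Spns2 had 1.42, 2.91 and 4.15 FPKM in control cells and 3.09, 5.23 and 5.71 FPKM after fibrils, higher in each replicate number but overlapping between groups. Among ceramide synthases, Cers2, which makes very long chain ceramides, had a difference of 0.78 (SE 0.55). Cers4 and Cers6 had differences of -1.58 (SE 0.74) and -0.61 (SE 0.51). Cers4 had 44.2, 20.9 and 24.7 FPKM against 20.8, 14.7 and 1.81 FPKM, with all fibril values under all control values.

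In LPA and lysophosphatidylcholine metabolism, 12 of 20 tested genes were positive and the median was 0.10. Agpat4, an acyltransferase that converts LPA to phosphatidic acid, had 17.2, 10.9 and 15.4 FPKM in control cells and 27, 17.6 and 75.6 FPKM after fibrils, a difference of 1.16 (SE 0.55). The lower members Lpcat1, which reacylates lysophosphatidylcholine, and Agk, a mitochondrial lipid kinase that can form LPA, had differences of -0.61 (SE 0.58) and -0.58 (SE 0.38). Of the signalling genes, 9 of 23 were positive and the median was -0.12. Gnaq, the alpha subunit of Gq, had a difference of -1.07 (SE 0.59) and Arhgef12, a guanine nucleotide exchange factor, one of -1.02 (SE 0.67). Gna12, the alpha subunit of G12, had 0.52 (SE 0.53) and Rac1 had 0.48 (SE 0.67).

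Of 15 listed targets of SRF and YAP, 9 were tested, each with a difference smaller than its SE. Cyr61, Ctgf, Ankrd1 and Acta2 were among those not tested, each under 1 FPKM in every library. The list was thus covered only in part. The median was -0.04 over the 9 tested genes, 2 of them positive, which equals the median of all genes. Tagln, encoding transgelin, had 8.75, 0.679 and 1.47 FPKM in control cells and 8.09, 1.05 and 9.32 FPKM after fibrils, a difference of 0.75 (SE 0.80). Tpm1, Lats2 and Flna had differences of -0.27, -0.15 and 0.07, each smaller than its SE.

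Markers of other cell types were compared in the same libraries. Of the 15 astrocyte markers listed, 11 were tested, and 9 of these had negative differences (median -1.36). All fibril libraries were below all controls for 5 of them and above for 1, beside 5.3% and 4.24% of all genes tested. Of these markers 0 passed without or with the block. Their summed level was 240 to 342 FPKM in controls and 131 to 288 FPKM with fibrils, with Gjb6 listed at 0 throughout. The 5 lower ones were Slc1a3, Gja1, Slc4a4, Sparcl1 and Atp1b2. Slc1a3, an astrocyte glutamate transporter, had 28.2, 60.9 and 59.4 FPKM in control cells and 13.1, 16.5 and 23.2 FPKM after fibrils, and Gja1, the main astrocyte connexin gene, had 17.2, 3.78 and 6.69 FPKM against 3.15, 0.704 and 1.77 FPKM. Slc4a4, a bicarbonate transporter, had 4.12, 3.11 and 5.05 FPKM against 0.824, 0.132 and 0.154 FPKM, and Atp1b2, a sodium pump subunit, had 40.2, 43.9 and 55.2 FPKM against 27.9, 23.5 and 24 FPKM. Both were closer together across the controls than Gja1, as was S1pr1. Other tested astrocyte markers were spread widely there: Sox9 had 6.35, 33.3 and 41.2 FPKM and Slc1a2 had 1.42, 8.65 and 11.7 FPKM. Fgfr3 and Aqp4 were also spread, so the likeness to S1pr1 held for only a part of these markers. The 1 higher marker was Gfap, the astrocyte intermediate filament gene, with 0.643, 0.37 and 0.733 FPKM in control cells and 3.69, 6.2 and 24.8 FPKM after fibrils (log2 difference 2.60, SE 0.61). The part of astrocyte RNA in the S1pr1 difference was not tested.

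Markers of endothelial cells, another known source of S1pr1, were at or near 0. Of them 9 were in the table and 0 passed the filter. The summed level was at most 0.742 FPKM in any library, Cldn5, Tie1 and Erg were listed at 0 in all of them, which can be a failed estimate, and Cdh5 reached 0.0727 FPKM. The part of endothelial RNA in the S1pr1 difference was not tested. Of the fibroblast and mural markers, Cspg4, which precursor cells also express, was the only one tested. Col1a1 was 0 in every control and at most 0.0926 FPKM with fibrils.

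Most markers of differentiating oligodendrocytes had positive differences, as had S1pr5 and Lpar1. Of 12 tested, 11 were positive (median 1.39) and 0 passed without the block. All fibril libraries were above all controls for 6 of them and below for 0, beside 4.24% and 5.3% of all genes tested. With the block 2 rose (Mag and Enpp6, the latter also in the pathway list above), where 0.111% of all genes passed. Their summed level was 1030 to 4920 FPKM in controls and 3900 to 8500 FPKM with fibrils. In control replicate 1, where Enpp6 was the highest of the controls, Lpar1 was also the highest of the controls and S1pr5 the lowest. S1pr5 was estimated at 1 fragment in that library, so its place among the controls is not secure. The part of oligodendrocyte RNA in the S1pr5 and Lpar1 differences was not tested. Of 11 tested precursor markers, 1 was positive (median -0.84) and 0 passed. All fibril libraries were below all controls for 0 of the 11. Pdgfra had 47.5, 146 and 304 FPKM in control cells and 43.4, 95.3 and 60.2 FPKM after fibrils. The part of precursor RNA in the differences of S1pr1 and the other receptors was not tested. Microglia markers summed to 2.09 to 47.7 FPKM in controls and 13.5 to 65.8 FPKM with fibrils (5 of 7 tested positive, median 0.96, 0 passed). Cd14, a receptor for bacterial lipopolysaccharide, had 0, 0.26 and 0.0708 FPKM in control cells and 2.39, 10.6 and 3.23 FPKM after fibrils (log2 difference 2.32, SE 0.51). The control values of Tyrobp, an adaptor of immune receptors, were 0, 4.48 and 0 FPKM and its fibril values 1.93, 18.7 and 8.76 FPKM. The lysosomal Cd68 had 6.31, 7.52 and 0.302 FPKM against 7.56, 14.3 and 5.56 FPKM. Aif1 had a difference of 0.96 (SE 0.92). The complement genes C1qa, C1qb and C1qc had differences near 0 (-0.05, 0.15 and -0.04). Each was highest in control replicate 2, at 10.3, 8.36 and 7.44 FPKM. The myeloid receptor gene Csf1r, which was not tested, was listed at 0 in both replicate 1 libraries. The part of microglia RNA in the receptor differences was not tested. Of 9 tested neuron markers 0 were positive and 0 passed (median -0.62). All fibril libraries were below all controls for 4 of the 9, beside 5.3% of all genes tested, so lower values were not limited to astrocyte markers. Of 2 tested Schwann cell markers 1 was positive and 0 passed.

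**Figure D5:**
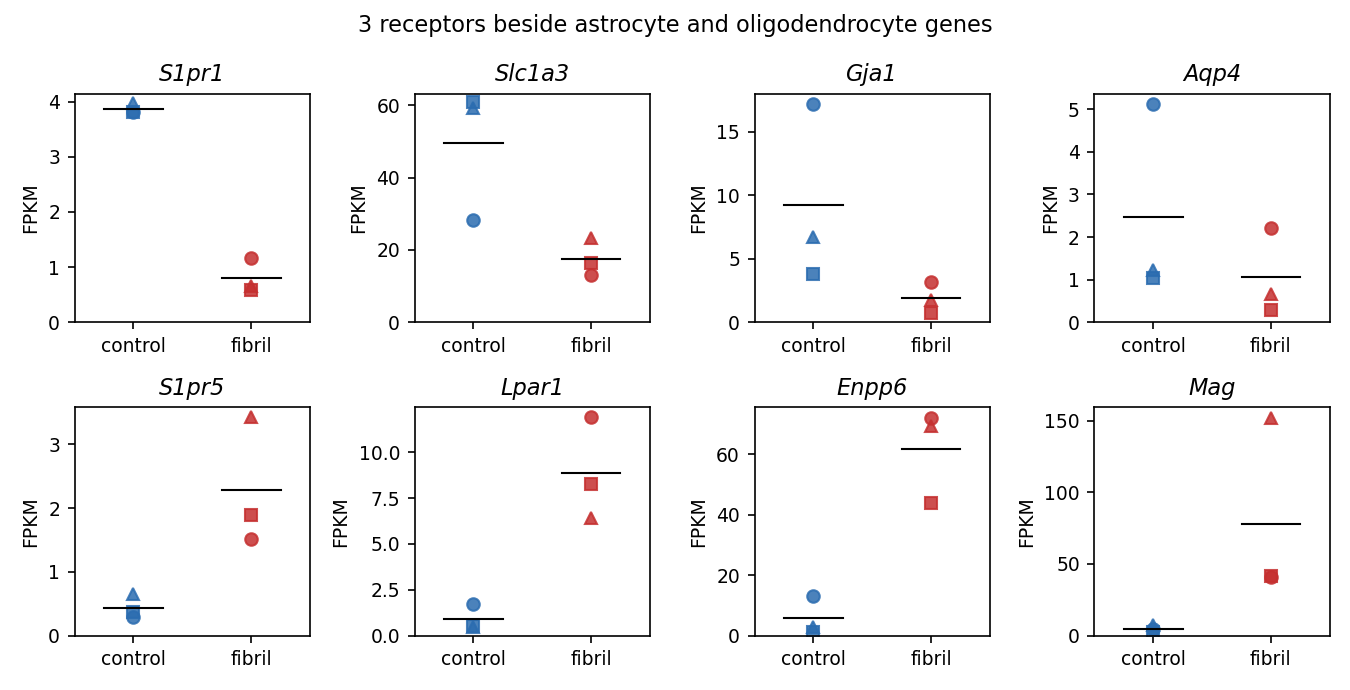
FPKM of S1pr1, S1pr5 and Lpar1 beside the astrocyte genes Slc1a3, Gja1 and Aqp4 and the oligodendrocyte genes Enpp6 and Mag in the 6 libraries (blue control, red fibril; circle, square and triangle for replicates 1, 2 and 3; black lines are group means). Groups separate in every panel but Aqp4, where fibril replicate 1 (2.21 FPKM) is above control replicates 2 and 3 (1.04 and 1.23 FPKM). Tested markers that went the other way are not shown: the astrocyte genes Gfap (2.60) and Aldoc (0.28) and the oligodendrocyte gene Gjb1 (-0.51, log2 differences).

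The genes most like each receptor across the 6 libraries were sought among 9033 tested genes by the mean absolute difference of log2(FPKM + 1) centred on each gene's mean. Changes of low genes come out too small on this scale, so a near gene at a higher level can have a smaller fold change. Nearest to S1pr1 were Rab31 (0.183), Fnbp1 (0.24) and Epas1 (0.241); Rab31, a vesicle traffic GTPase, had 93.6, 91 and 106 FPKM in control cells and 45.3, 44.1 and 41.4 FPKM after fibrils. Nearest to Lpar1 was Tpd52 (0.162), followed by Chn2 (0.28) and Dynll2 (0.33); Tpd52 had 7.79, 5.36 and 3.41 FPKM against 42.9, 27.9 and 29.6 FPKM. Nearest to S1pr5 were Rab40c (0.143), Iffo1 (0.15) and Hs6st1 (0.152). Those nearest to S1pr2 (among them Fam110b and Pc, 0.0898 and 0.0946) and Sphk2 (Hyal2, Mgat1 and Ccm2, 0.0655 to 0.0742) shared their low values in replicate 1. Lpar4 was nearest to Top1, Ppp2r5c and Akap10 (0.0892 to 0.0917), which were high in both replicate 1 libraries, and Enpp2 to Arhgef28, Sipa1l2 and Dusp7 (0.124 to 0.135). Replicate 1 of both groups shares low depth and high mitochondrial content, and likeness over 6 points is a description only.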

How the data were processed

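RNA from 6 libraries was measured by strand-specific sequencing (Agilent SureSelect kit, per the labels' protocols). The authors deposited FPKM values, 1 column per library, per the file headers. The submitters' processing notes name Trimmomatic and FastQC, with no version. The aligner, the quantifier and the build were not given in the sources used here, and gene coordinates are the table's own. FPKM are not counts, so no count model was run.

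The scale of analysis was log2(FPKM + 1), over the 10766 genes that reached 1 FPKM in 3 or more libraries. limma 3.58.1 in R 4.3.3 compared 3 fibril with 3 control libraries (mean-variance trend, two-sided, Benjamini-Hochberg over all genes, threshold 0.05), and was tested on simulated data. Deviations of same-numbered libraries correlated positively across genes (0.747, 0.364 and 0.216). The labels state no pairing, so the replicate block was run as an alternative. Control 2 with fibril 3 (0.433) and control 3 with fibril 2 (0.5) correlated more than replicates 2 and 3 did with their own number, so only replicate 1 stood apart. An exact permutation test of 3 against 3 cannot go below p = 0.1.

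The members and gene lists were chosen with earlier results of these data known. Named pathway genes are, per list, the 2 largest differences in each direction among genes with a mean of 2 FPKM or more, and any gene past the threshold; for likeness, unnamed loci were left out. Of the cell type markers to be named, Pecam1 was not analysed here, and some genes the rules pick are not reported here. Other cell type markers and genes listed at 0 were named after their values were seen. Alternatives were other scalings, filters, pseudocounts, the replicate block and leaving out libraries.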

Additional observations from a re-analysis of the deposited data

How the results depend on the processing

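Without a block, the count of genes past the threshold was 0 higher and 0 lower under quantile normalization, scaling without mitochondrially encoded genes, both other filters, both pseudocounts (0.1 and 5) and replicate numbers 2 and 3 only. With each library left out in turn, 0 to 3 genes were higher (3 when fibril replicate 3 was missing) and 0 lower. With the replicate block, 12 genes were higher, 0 lower, and 1 pathway gene passed (Enpp6); with scaling without mitochondrially encoded genes it gave 1 higher, and with quantile normalization 13 higher and 2 lower, and 1 of the described genes passed. The cause of these changes was not tested. Enpp6 did not pass under either of these 2 combined settings. S1pr1, S1pr5 and Lpar1 kept their sign in all 15 alternatives that gave a value. As their groups do not overlap, another filter or pseudocount, the block or a left-out library could not change the sign. Only the other scalings could have done so, and nothing is read from the number of alternatives. A mean filter of 5 FPKM left these genes out. The pseudocount set their size: with 0.1 and 5 FPKM, S1pr1 was at -2.20 and -0.62, S1pr5 at 2.12 and 0.41 and Lpar1 at 3.32 and 1.22. With replicates 2 and 3 only they were at -1.60, 1.25 and 2.47. S1pr2 had the opposite sign in 7 of 16 alternatives and Sphk2 in 1, and Enpp2 (0.25 to 0.88) and Lpar4 (-0.97 to -0.06) in 0. S1pr3, Lpar6 and Sphk1 were too low for the filter.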
